A study of Sus scrofa with 13 samples.

Results

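Of 10813 long noncoding RNAs (lncRNAs) catalogued in pig by total RNA sequencing, 79 (0.731%) were kidney-restricted among 9 libraries made 240 days after birth. The set was chosen by measured values, namely an RPKM of at least 1 in kidney, the highest value in kidney and a tau of at least 0.9 over these 9 libraries. RPKM is the read count of a feature scaled for its length and for the total reads of the library. Tau is a measure of organ restriction that is 0 for even expression and 1 for a feature found in a single organ. It was computed on the log2(RPKM + 0.1) scale, shifted so that 0 RPKM gives 0. The 9 libraries were heart, liver, spleen, lung, kidney, testis, ovary, adipose and the back muscle longissimus dorsi. Since kidney, the other 8 organs and tau chose the lncRNAs, their values in these libraries are a description and were not tested.

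The samples came from Guizhou mini-pigs, a small Chinese breed, and each organ was sequenced once at day 240. Longissimus dorsi was also sequenced at day 0 and day 30. The other 2 libraries, called tissue mixture and muscle mixture below, were made from equal quantities of RNA of multiple breeds and time points, the former of multiple tissues and the latter of longissimus dorsi. The labels name neither the tissues of the tissue mixture nor the number of animals behind a library. They also spell the kidney sample "kindey", and state no treatment or genotype. With 1 library per group, no difference had a replicate check and no test between groups was possible. The day 0, day 30 and mixture libraries took no part in the choice of the lncRNAs.

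The kidney filters blood in the glomerulus, where podocytes form the filter, and then recovers water, salts and solutes along the nephron. The proximal tubule takes back most of the filtered solutes, the thick ascending limb and the distal tubule take back salt, and the collecting duct adjusts water and acid. LncRNAs are transcripts without an evident coding frame, and many of them are found in few tissues. The functions of the lncRNAs described here are not known from the sources used here, and they are named by the TCONS identifiers of the transcript assembly. Their sequences and genome positions were not used here.

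The kidney label was checked against markers of nephron segments. Of 38 kidney markers, 27 could be paired with a listed Ensembl gene, and 26 of these had their highest value at day 240 in kidney. UMOD, which encodes uromodulin of the thick ascending limb, had an RPKM of 165 in kidney and at most 0.121 in the other 8 organs. The organic anion transporter SLC22A8 of the proximal tubule was at 38.5 RPKM and the water channel AQP2 of the collecting duct at 17.5 RPKM. WT1, a podocyte gene also found in gonads and mesothelium, was the exception, with 1.39 RPKM in kidney and 5.10 RPKM in spleen. Of 29 markers of other organs and of the adrenal gland, 18 were paired, and 9 of these were listed at 0 in kidney. The highest of the 18 in kidney was the coagulation factor gene F2, with 3.42 RPKM against 67.9 RPKM in liver. All 3 paired testis markers and both paired lymphoid markers were at 0 in kidney. Summed RPKM in kidney was 279 for the 6 proximal tubule genes, 259 for the 4 genes of the thick ascending limb, 126 for the 2 distal tubule genes and 64.2 for the 5 collecting duct genes.

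RPKM moves in steps of 1 read for each feature, which gave back the read numbers. Among the single-tissue libraries, the totals behind RPKM lay between 21685316 in ovary and 38581416 in testis, with 36363969 in kidney. In kidney, 6488599 reads were counted on features, among them 238690 on lncRNAs. The mixtures were deeper, with a total of 108337358 reads for the tissue mixture and 63015726 for the muscle mixture. For 46 of the 79 lncRNAs, which were above 0 in 1 to 3 libraries, the recovered length and reads are lower bounds. Intervals below are exact Poisson 95% intervals of these reads. They cover counting error only and are too wide where reads are lower bounds.

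Kidney-restricted lncRNAs were a minor part of the lncRNAs of the kidney. An RPKM of at least 1 in kidney was found for 601 lncRNAs, of which 297 were highest in kidney among the 9 organs. The median tau of these 297 was 0.783, and the 79 with a tau of at least 0.9 were 13.1% of the 601. The 79 lncRNAs held 10071 reads in kidney, 4.22% of all lncRNA reads there. In whole organs, fewer cells of a type and less RNA per cell cannot be told apart. Their kidney RPKM ranged from 1.06 to 18.7 with a median of 2.23, and 7 of them reached 10 RPKM. The 10 highest made up 43.6% of the summed RPKM of 312. The median number of recovered reads in kidney was 49, while 13 lncRNAs had fewer than 20 recovered reads. All 13 were above 0 in 1 to 3 libraries, so their reads are lower bounds.

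**Figure D1:**
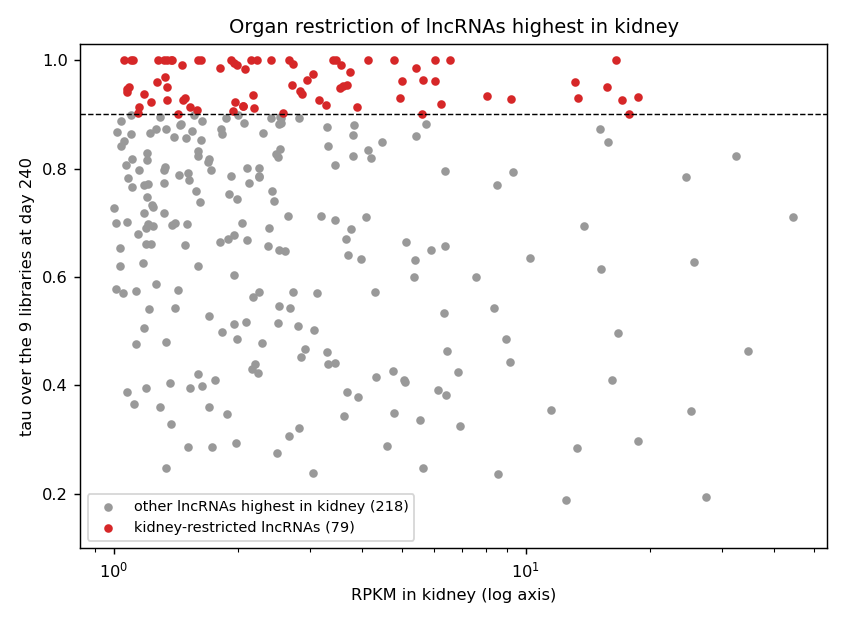
Tau over the 9 libraries at day 240 (y axis) against RPKM in kidney (x axis, log scale) for 297 lncRNAs with an RPKM of at least 1 in kidney and the highest value there. The 79 kidney-restricted lncRNAs (red) lie at or above the dashed line at a tau of 0.9, and the 218 others (grey) lie below it and reach higher RPKM.

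The limits of the rule cut through a continuous range. Just inside the tau limit were TCONS_00104372 (0.9001), TCONS_00016531 (0.901) and TCONS_00350127 (0.902). Just outside it were TCONS_00570462 (0.8994), TCONS_00599603 (0.8993) and TCONS_00563745 (0.899). At the RPKM limit, TCONS_00561043 (1.06), TCONS_00748300 (1.07) and TCONS_00573102 (1.08) were just inside. TCONS_00530770 (0.996), TCONS_00746429 (0.995) and TCONS_00818965 (0.982) were just outside, with 13, 14 and 50 reads in kidney.

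The abundant lncRNAs of the set are described first. TCONS_00016873 had the highest RPKM in kidney, 18.7 (interval 16.3 to 21.2, 228 reads). It had 0.242 RPKM in lung, 0.158 in adipose and 0.0966 in liver, which were 3, 2 and 1 reads. It was at 0 in heart, spleen, testis, ovary and the 3 muscle stages, had 0.769 RPKM in the tissue mixture and was at 0 in the muscle mixture. Kidney thus stood alone, with a value 77.3 times that of lung. TCONS_00016874, which has the next identifier number, had 15.8 RPKM in kidney (14.3 to 17.4, 398 reads). Its other values were 0.156 in lung, 0.0763 in adipose, 0.0664 in ovary and 0.904 in the tissue mixture, and it was at 0 elsewhere. Both were low in lung and adipose and at 0 in every muscle library. Whether they share a gene or reads cannot be told from the values.

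TCONS_00350127 had 17.8 RPKM in kidney (16.2 to 19.6, 446 reads). It had 0.829 RPKM in testis, 0.197 in lung and 0.115 in adipose, and it was at 0 in the other organs and muscle stages. In the mixtures it had 0.134 RPKM (tissue) and 0.0461 RPKM (muscle). The 22 reads in testis make testis the organ next to kidney, 21.5 times lower. TCONS_00063101 had 17.1 RPKM in kidney (15.7 to 18.6, 550 reads). Lung (0.214), ovary (0.208) and liver (0.110) held 7, 4 and 3 reads of it, the tissue mixture had 0.479 RPKM, and the other 8 libraries were at 0.

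TCONS_00795875 had 16.6 RPKM in kidney (14.5 to 18.9, 226 reads) and was at 0 in all other single-tissue libraries. The kidney value was at least 44.9 times the RPKM that 3 reads would give in any other organ at day 240. This ratio takes the kidney value as it stands and is no confidence limit. The only other library with reads was the tissue mixture, at 5.71 RPKM (5.0 to 6.49, 232 reads). TCONS_00164403 was likewise at 0 in the other 8 organs, with 6.54 RPKM in kidney (5.62 to 7.57, 181 reads), at least 36.0 times the RPKM of 3 reads there. It had 0.400 RPKM in the tissue mixture, 0.0626 in the muscle mixture and 1 read (0.0538 RPKM) in muscle at day 30.

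TCONS_00530918 had the most recovered reads, where those of 46 lncRNAs are lower bounds, with 1124 in kidney (13.1 RPKM, 12.4 to 13.9). It had 9 reads in adipose, 4 in ovary, 2 in lung and 1 in testis, which is at most 0.101 RPKM, and 0 in heart, liver, spleen and the muscle stages. The mixtures had 0.624 RPKM (tissue) and 0.00675 RPKM (muscle). TCONS_00082519 followed with 906 reads in kidney (8.06 RPKM, 7.54 to 8.60). It had 0.241 RPKM in liver, 0.0895 in ovary, 0.0335 in testis, 0.0171 in adipose and 0.0132 in muscle at day 30, and its mixture values were 0.376 RPKM (tissue) and 0.0154 RPKM (muscle). Both had traces in 4 other organs, while kidney was 130 times the next organ for TCONS_00530918 and 33.4 times for TCONS_00082519. TCONS_00643224 had 9.19 RPKM in kidney (7.69 to 10.9, 133 reads), 0.466 in adipose and 0.136 in lung, and it was at 0 in the other 10 libraries, both mixtures included.

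**Figure D2:**
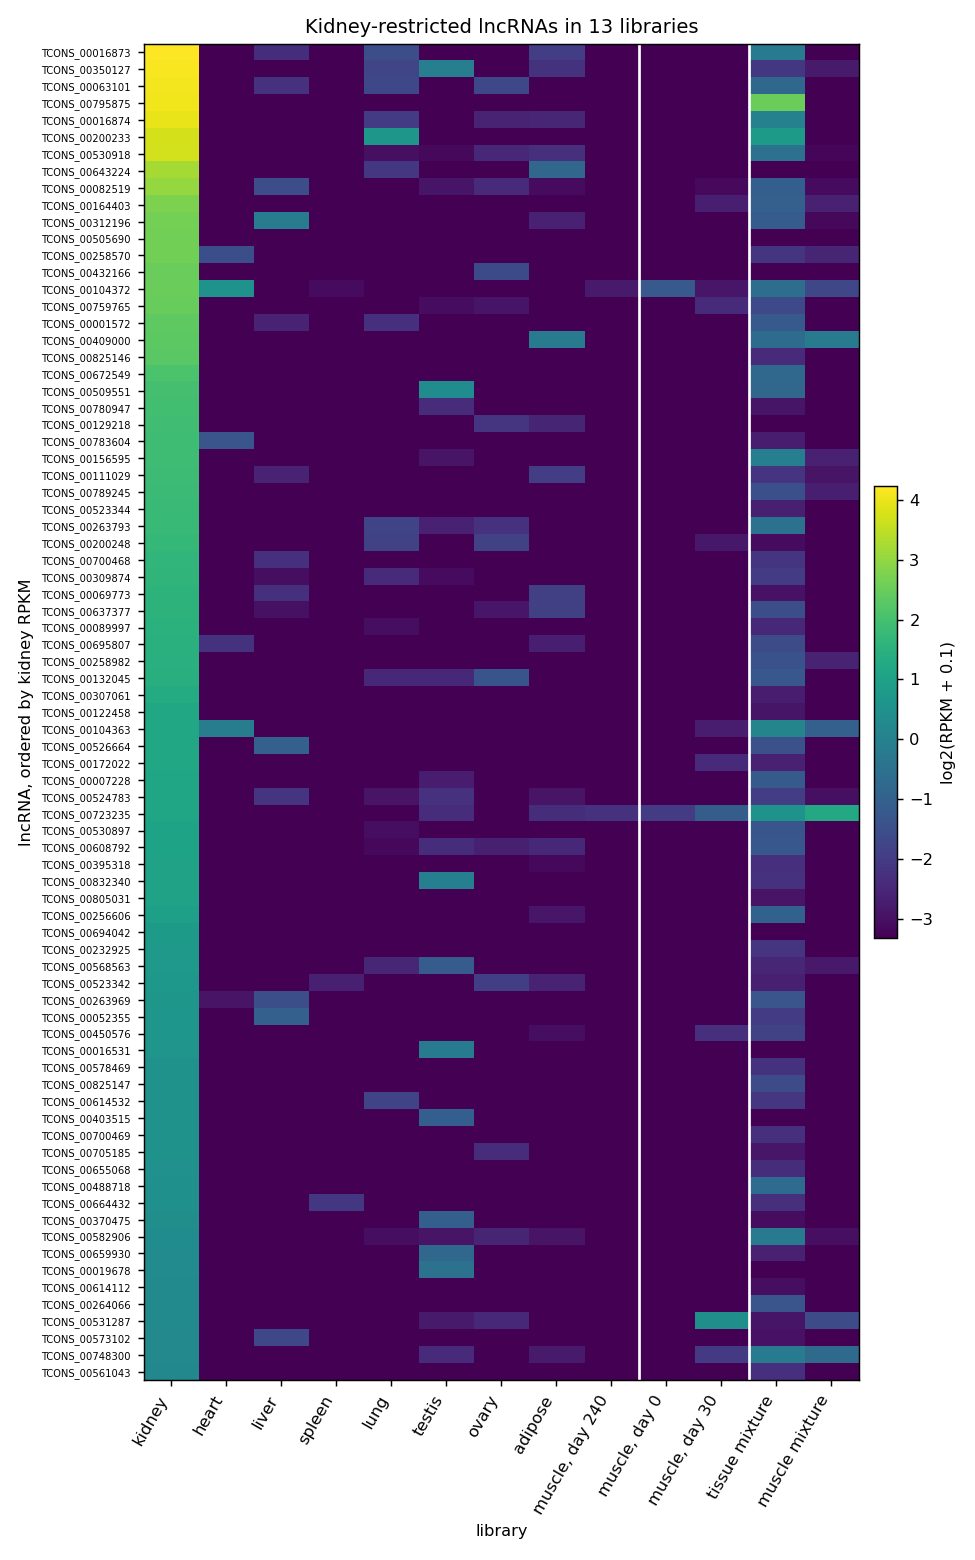
Log2(RPKM + 0.1) of the 79 kidney-restricted lncRNAs (rows, ordered by kidney RPKM) in 13 libraries (columns). White lines separate the 9 libraries at day 240, the 2 earlier muscle stages and the 2 mixtures. Outside kidney, the tissue mixture is the column with the most values above 0 (71 of 79), and muscle at day 0 and day 240 are the emptiest (2 of 79 each).

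In the other 8 organs, 22 of the 79 lncRNAs were at 0, 28 were above 0 in 1 organ, 13 in 2, 11 in 3 and 5 in 4 organs. None was above 0 in more than 4. The 22 had a median of 21.5 recovered reads in kidney, against 84 for the other 57. Reads of lncRNAs found in few libraries are lower bounds, so these medians do not compare depth. The median kidney RPKM was 2.04 for the 22 and 2.70 for the 57. At the depth of these libraries, 0 reads do not show absence. Over the organs at 0, the RPKM that 3 reads would give had a median of 0.181. Testis held 24 of the lncRNAs above 0, adipose 22, lung 19, ovary 16, liver 15, heart 6, spleen 3 and muscle 2. Libraries also differed over all 10813 lncRNAs, of which 6472 were above 0 in testis, 3984 in ovary, 3953 in lung, 3477 in adipose, 2573 in spleen, 2440 in liver, 2200 in heart and 1650 in muscle. The organ next to kidney was testis for 14 lncRNAs, lung for 11, adipose for 9, liver and ovary for 8 each, heart for 5, and spleen and muscle for 1 each. An RPKM of at least 1 in another organ was found for 3 lncRNAs. Kidney was at least 2-fold above the highest other organ for 77 of 79, which the rule nearly requires. Among all 601 lncRNAs with an RPKM of at least 1 in kidney this share was 28.5%.

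The level in the highest other organ was at least 0.5 RPKM for 10 lncRNAs. This organ was testis for 5 of them, heart for 2 and lung, liver and adipose for 1 each. TCONS_00200233 had 13.4 RPKM in kidney (11.7 to 15.2) and 1.49 RPKM in lung (0.962 to 2.19, 25 reads), was at 0 in the other 7 organs, muscle at day 0 and day 30 and the muscle mixture, and had 1.62 RPKM in the tissue mixture. Its intervals in kidney and lung did not overlap, but the rule used both values, so this is a description and no test. Summed over all 79 lncRNAs, lung held 1.12% of the kidney RPKM, and summed over the 27 paired kidney markers it held 1.31%. For testis these shares were 2.16% and 1.12%, and for liver 0.972% and 1.91%, so lung was not the highest. TCONS_00200233 alone had 1.49 of the 3.48 RPKM that the 79 summed to in lung. The lung values were uneven among the markers. CDH16, a cadherin of tubule cells, had 4.65 RPKM in lung, while the 6 proximal tubule genes summed to 0.387 RPKM in lung against 279 in kidney. Whether kidney RNA in the lung library adds to these values was not tested.

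A pair of lncRNAs with near identifier numbers shared kidney and heart. TCONS_00104372 had 5.59 RPKM in kidney (5.18 to 6.04, 660 reads) and 1.37 RPKM in heart (1.17 to 1.60, 160 reads). It also had 0.328 RPKM in muscle at day 0, 0.0378 at day 30, 0.0472 at day 240 and 0.0169 in spleen, with 0.569 RPKM (tissue) and 0.205 RPKM (muscle) in the mixtures. TCONS_00104363 had 2.19 RPKM in kidney (1.83 to 2.60) and 0.806 RPKM in heart (0.594 to 1.07). It had 2 reads (0.0494 RPKM) in muscle at day 30, 0.992 RPKM in the tissue mixture and 0.393 RPKM in the muscle mixture, and it was at 0 elsewhere. Kidney was thus 4.08 times heart for the former and 2.72 times heart for the latter, and none of the other 77 had more than 0.296 RPKM in heart. That both identifiers are close was seen after their values were known.

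In testis, TCONS_00509551 had 1.18 RPKM (0.70 to 1.87) against 3.90 RPKM (2.95 to 5.06) in kidney and 0.467 RPKM in the tissue mixture, and it was at 0 in the other 10 libraries. TCONS_00832340 had 0.866 RPKM in testis (0.504 to 1.39) against 1.94 RPKM in kidney (1.36 to 2.69) and 0.109 RPKM in the tissue mixture, with 0 elsewhere. The intervals of kidney and testis were apart for TCONS_00509551 and overlapped for TCONS_00832340. The rule used both organs, so this is a description and no test. The 2 lncRNAs less than 2-fold above another organ also had it in testis. TCONS_00016531 had 1.43 RPKM in kidney (0.819 to 2.33, 16 reads) and 0.760 RPKM in testis (0.347 to 1.44, 9 reads). TCONS_00019678 had 1.15 RPKM in kidney (0.690 to 1.79, 19 reads) and 0.625 RPKM in testis (0.312 to 1.12, 11 reads). Both were at 0 in the other 11 libraries, and their kidney and testis intervals overlapped. The lncRNAs named here for testis were above 0 in few libraries and their reads are lower bounds. Their intervals are thus too wide, and the overlaps may not hold. In liver, TCONS_00312196 had 0.814 RPKM (0.557 to 1.15, 32 reads) against 6.21 RPKM in kidney (5.51 to 6.97, 288 reads), a 7.63-fold difference. It had 0.0623 RPKM in adipose, 0.355 in the tissue mixture and 1 read in the muscle mixture. The protamine gene PRM1 of sperm was at 3203 RPKM in testis and 0 in kidney.

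For the 5 lncRNAs highest in kidney, the Ensembl genes with the most similar profile were searched, as the smallest root mean square difference on the log2(RPKM + 0.1) scale over all 13 libraries. The nearest gene to TCONS_00016873 was SULT1C2, a sulfotransferase, at a difference of 0.416. An unnamed gene was next at 0.579, and SLC22A6, an organic anion transporter of the proximal tubule, came after it at 0.628. For TCONS_00350127 they were TFAP2B, a transcription factor, at 0.735 and TMEM72, a membrane protein, at 0.852. For TCONS_00063101 an unnamed gene at 0.587 was followed by CNDP1, a carnosine dipeptidase, at 0.647. TCONS_00795875 had the closest matches. An unnamed gene stood at 0.138, AMN, whose product forms with cubilin a receptor for filtered proteins in the proximal tubule, at 0.258, and SLC6A18, a neutral amino acid transporter of the same segment, at 0.266. For TCONS_00016874, CCDC198 was second at 0.428. The likeness rests on 13 libraries in which most values were at or near 0.

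**Figure D3:**
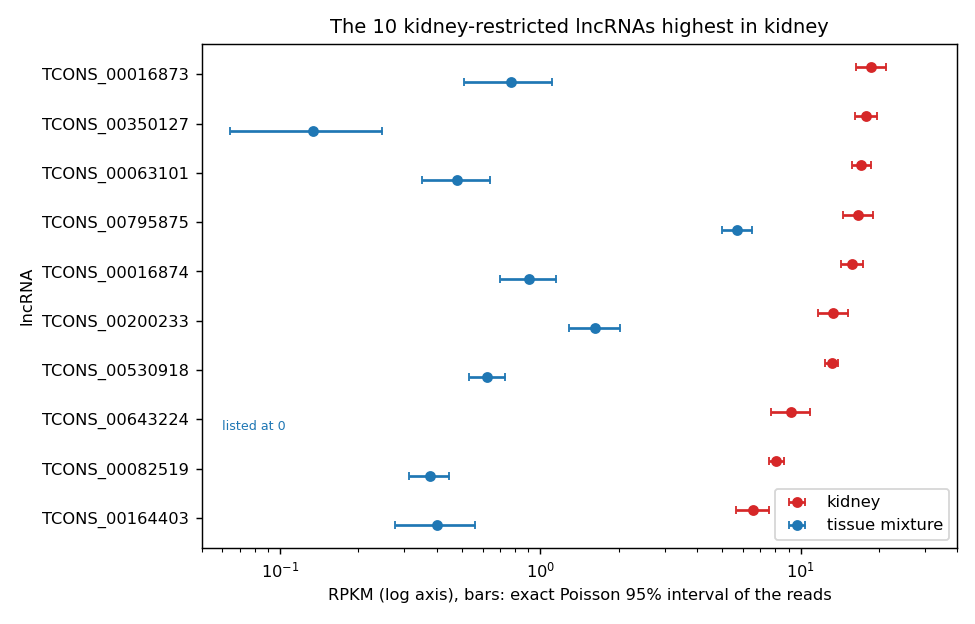
RPKM (x axis, log scale) of the 10 kidney-restricted lncRNAs highest in kidney (y axis), in kidney (red) and in the tissue mixture (blue). Points are the values of single libraries and whiskers are exact Poisson 95% intervals of the reads. All 10 were lower in the tissue mixture than in kidney, with TCONS_00795875 the closest and TCONS_00643224 listed at 0.

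The tissue mixture gave a measurement of the 79 lncRNAs outside the rule. Of the 79, 71 (89.9%) were above 0 in the tissue mixture, against 68.9% of the 3346 lncRNAs with an RPKM of at least 1 in any organ at day 240. Among lncRNAs chosen by the same rule, the share was 91.7% for heart, 90.3% for liver and 94.7% for muscle. It was 77.1% for lung, 75% for spleen, 52.6% for adipose and 52.5% for ovary. For the 1282 testis-restricted lncRNAs, which are part of the 3346, it was 38.2%. These 1282 lower the share over the 3346, so the gap between 89.9% and 68.9% is no trait of the kidney set. Of the 22 lncRNAs found in no other organ, 20 were above 0 in the tissue mixture. None of the 79 was higher in the tissue mixture than in kidney. The median level in the tissue mixture was 5.71% of that in kidney, with quartiles of 2.01% and 11.9%. For the 66 lncRNAs with at least 20 reads in kidney the median was 5.72%. Kidney, the denominator of these percentages, was used by the rule.

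The same rule was applied to other organs. Heart-restricted lncRNAs (36) had a median of 7.72% of their heart level in the tissue mixture, and ovary-restricted lncRNAs (120) had 0.801% of their ovary level. Over the 8 other organs the medians lay between 0% in testis and 11.7% in muscle. The 124 Ensembl genes that met the kidney rule were all above 0 in the tissue mixture, with a median of 20.6% and quartiles of 10.9% and 35.7%. Over the 95 of them within the RPKM range of the lncRNAs, up to 18.7 RPKM, the median was 26.2%. The 27 paired kidney markers had a median of 20.5%, and 25 of them were above the median of the lncRNAs. They ranged from 1.64% for CALB1, a calcium-binding protein of the distal tubule, to 249% for WT1. UMOD was at 19.4%, AQP2 at 16.6% and SLC22A8 at 11.1%. These differences between lncRNAs and Ensembl genes were not tested. The testis genes PRM1 and TNP1 were at 0 in the tissue mixture. The percentages moved with scaling. After all libraries were given equal summed RPKM, the medians were 4.0% for lncRNAs and 13.5% for Ensembl genes, and with the median ratio 2.51% and 9.83%, each over the features that then met the rule. The lower median was that of the lncRNAs in each case.

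**Figure D4:**
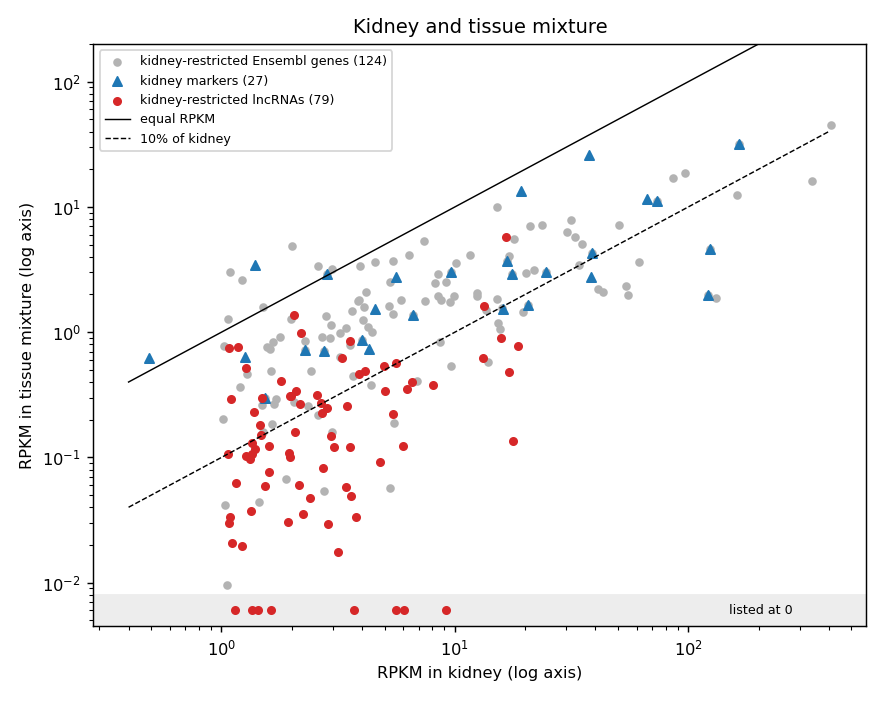
RPKM in the tissue mixture (y axis, log scale) against RPKM in kidney (x axis, log scale) for 79 kidney-restricted lncRNAs (red), 124 kidney-restricted Ensembl genes (grey) and 27 kidney markers (blue triangles). The solid line marks equal RPKM, the dashed line 10% of kidney and the grey band values listed at 0. The lncRNAs lie lower (median 5.71% of kidney) than the Ensembl genes (median 20.6%). All lncRNAs together also held a smaller share of counted reads in the tissue mixture than in kidney.

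For part of the lncRNAs, the level in the tissue mixture relative to kidney lay apart from the median by more than counting error. The median comes from the same lncRNAs and the rule used kidney, so this is a description. Among the 66 with at least 20 reads in kidney, the 95% interval of the ratio was above the median of 5.71% for 19, below it for 13 and included it for 34. Lowest were 3 lncRNAs at 0 reads. TCONS_00643224 had 133 reads in kidney, which bounds its level in the tissue mixture at 0.944% of kidney. For TCONS_00432166 with 84 reads in kidney the bound was 1.51%, and for TCONS_00129218 with 50 reads it was 2.57%. TCONS_00200248 had 120 reads in kidney and 2 in the tissue mixture, or 0.559% (0.0670 to 2.07%). TCONS_00350127, among the most abundant in kidney, was at 0.753% (0.358 to 1.40%). In these 5, the listed values were at or below 0.753% of kidney, while the upper limits reached 2.57%.

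At the other end, TCONS_00748300 was at 70.2% of its kidney level (41.4 to 123%), with 0.754 RPKM in the tissue mixture against 1.07 in kidney. TCONS_00723235 was at 67.1% (45.6 to 100.2%) and TCONS_00582906 at 65.0% (51.3 to 82.6%). TCONS_00582906 had 0.768 RPKM in the tissue mixture on 211 reads, 1.18 RPKM in kidney on 109 reads at most 0.0727 RPKM in the 4 other organs where it was above 0, and 0.0250 RPKM in the muscle mixture. The kidney and heart lncRNA TCONS_00104363 was at 45.3% (35.9 to 57.1%), and TCONS_00488718, at 0 in all organs but kidney, was at 40.6% (22.8 to 72.8%). Thus 3 of these 5 had a level in the tissue mixture whose interval for the ratio ended below 100%, TCONS_00723235 ended near it, and that of TCONS_00748300 included it.

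Skeletal muscle was a second measurement, in part outside the rule. Muscle at day 240, which the rule used, had 2 of the 79 lncRNAs above 0 (2.53%, against 25.8% of the 3346 lncRNAs). At day 0 there were also 2 (against 24.6%), and at day 30 there were 11 or 13.9% (against 28.2%). The muscle mixture had 19 (24.1%, against 53.6%). These gaps are in part set by the rule, since it used muscle at day 240 and the 3346 include lncRNAs found there. Sets chosen by the same rule for organs other than muscle had lower shares at day 30 than kidney. They ranged from 0 of 16 for spleen to 2 of 19 for adipose. At day 0 they ranged from 0 of 16 for spleen to 7 of 36 for heart. In the muscle mixture they ranged from 20% for lung to 63.9% for heart, with testis (21.7%) also below kidney. A total of 56 lncRNAs were at 0 in all 4 muscle libraries. This count is in part set by the rule, which used muscle at day 240, where 77 were at 0. The matching share over all lncRNAs is not given here, so the count is no trait of the set. Most values above 0 were low. At day 30, 5 of the 11 had at least 3 reads. These were TCONS_00531287 with 17 reads, TCONS_00450576 with 12 reads (0.105 RPKM), TCONS_00723235 with 5 reads, and TCONS_00104372 and TCONS_00759765 with 3 reads each.

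TCONS_00531287 was the exception at day 30. It had 1.25 RPKM in muscle at day 30 (0.729 to 2.0, 17 reads) and 1.09 RPKM in kidney (0.682 to 1.65, 22 reads). It was at 0 in muscle at day 0 and day 240, heart, liver, spleen, lung and adipose, with 1 read each in testis (0.0466 RPKM) and ovary (0.0829 RPKM). The muscle mixture had 0.228 RPKM and the tissue mixture 0.0332 RPKM. Its level in muscle at day 30 was within the interval of kidney, so the 2 libraries cannot be told apart at this depth. In muscle at day 0 and day 240, 3 reads would give 0.151 and 0.165 RPKM, and the intervals reached 0.186 and 0.203 RPKM. The 6 proximal tubule markers summed to 0.0865 RPKM in muscle at day 30, and UMOD was at 0.0510 RPKM. The kidney transcription factor gene SIM1 was at 1.01 RPKM there, with 0.692 RPKM at day 0, 0.240 at day 240, 1.20 in the muscle mixture and 2.27 in kidney.

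TCONS_00723235 had reads in all 4 muscle libraries. Its RPKM was 0.153 at day 0, 0.373 at day 30, 0.112 at day 240 and 2.25 in the muscle mixture (1.78 to 2.81, 78 reads), against 2.05 in kidney (1.47 to 2.79, 41 reads) and 1.38 in the tissue mixture. Testis (0.0944) and adipose (0.0965) had 2 reads each, and the other 5 organs were at 0. The muscle mixture thus reached the level of kidney, while the 3 muscle stages of Guizhou mini-pigs stayed at 0.373 RPKM or lower. TCONS_00409000 had 4.96 RPKM in kidney (3.49 to 6.84), 0.775 in adipose, 0.774 in the muscle mixture and 0.540 in the tissue mixture, and it was at 0 in the 3 muscle stages. TCONS_00748300 had 0.507 RPKM in the muscle mixture and 0.145 at day 30, with 0 at day 0 and day 240. The breeds and ages of the muscle mixture are not named in the labels, so that breed, age and library cannot be told apart.

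**Figure D5:**
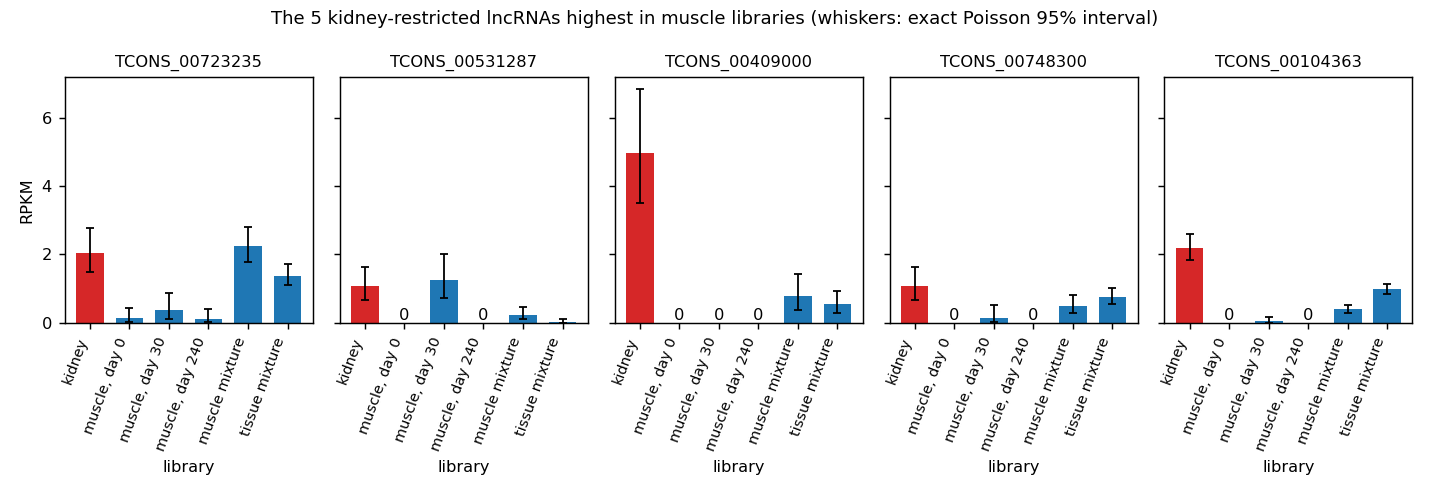
RPKM (y axis) of the 5 kidney-restricted lncRNAs highest in muscle libraries, in kidney (red) and in the 3 muscle stages and both mixtures (blue). Bars are values of single libraries, whiskers exact Poisson 95% intervals of the reads, and 0 marks libraries without reads. TCONS_00723235 in the muscle mixture (2.25) and TCONS_00531287 in muscle at day 30 (1.25) were not below kidney.

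Between the mixtures, 52 of the 79 lncRNAs had an RPKM of at least 0.1 in either and were compared as log2(RPKM + 0.1). This makes differences of low features smaller than they are. Of these, 45 were at least 2-fold higher in the tissue mixture and 1, TCONS_00531287, was at least 2-fold lower. Over all 4486 lncRNAs compared, 33.4% were higher and 12.6% lower. The rule favours this direction for the 79, since muscle at day 240 entered tau and 77 of them were at 0 there. The split is thus a description and not an independent result. The median difference was 1.70 for the kidney-restricted lncRNAs and 0.46 for all. The split of the same 79 lncRNAs depended on the scaling. With the same total 31 of 40 were higher and 1 lower (all lncRNAs 28.7% and 13.3%), and with the median ratio 24 of 33 were higher and 2 lower (20.2% and 18.0%). The median of the kidney-restricted lncRNAs was then 1.68 and 1.21. Among muscle stages, 5 of the 79 could be compared between day 30 and day 0, of which 3 were at least 2-fold higher at day 30 and 1 lower, beside 32.1% higher and 41% lower of all. With the same total it was 6 higher and 1 lower of 7, and with the median ratio 8 and 1 of 9. Both scalings multiply day 30 by a larger factor than day 0, which moves every lncRNA towards higher at day 30. The shares over all lncRNAs under these scalings are not given here. The scaled counts are thus no trait of the set, and a rise at day 30 was not tested. Among the lncRNAs of the 79 compared, only TCONS_00531287 had over 12 reads at day 30.

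The identifiers of some of the 79 were adjacent. Cases where both of a pair met the rule were TCONS_00016873 with TCONS_00016874, TCONS_00700468 with TCONS_00700469 and TCONS_00825146 with TCONS_00825147. TCONS_00700468 had 3.05 RPKM in kidney, 0.106 in liver and 0.120 in the tissue mixture, and TCONS_00700469 had 1.35 RPKM in kidney and 0.106 in the tissue mixture. TCONS_00825146 had 4.79 RPKM in kidney and 0.0918 in the tissue mixture. TCONS_00825147 had 1.37 RPKM in kidney and 0.231 in the tissue mixture, on at least 2 reads and 1 read. In all, 10 of the 79 had a listed lncRNA with an adjacent number, and for 8 of the 10 such a neighbour was highest in kidney too. Among 334 lncRNAs with an RPKM of at least 1 in an organ and an adjacent number, 174 (52.1%) had a neighbour highest in the same organ. The pairs that both met the rule enter the 8 from both sides, and the rule required both to be highest in kidney. The 8 of 10 is thus in part set by the rule and is a description only. Of the neighbours that did not meet the rule, TCONS_00001571 had 5.42 RPKM in kidney with a tau of 0.860, and TCONS_00582905 had 2.53 RPKM with a tau of 0.895. Whether adjacent transcripts share reads was not tested.

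The length over which the authors normalized was recovered as the smallest one that gives whole reads in all libraries. Among the 33 kidney-restricted lncRNAs above 0 in at least 4 libraries, it ranged from 205 to 4697 nt with a median of 1007 nt. Among all 4992 such lncRNAs the median was 826.5 nt. The recovered length was under 200 nt for 4 of the other 46, TCONS_00505690, TCONS_00672549, TCONS_00825147 and TCONS_00264066, and is then a lower bound. TCONS_00505690, with 6.04 RPKM in kidney, and TCONS_00694042, with 1.63 RPKM, had reads in no library but kidney. In 12 libraries they were thus at 0, on at least 9 and 19 reads in kidney.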

How the data were processed

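Total RNA was depleted of ribosomal RNA, and strand-specific paired-end libraries were prepared by a SMART or a dUTP protocol (which of them is not stated per library). The authors used TopHat (1.3.2 per the submitters' processing notes) for mapping and Cufflinks for assembly. The authors then filtered the assembly down to unannotated, spliced lncRNA candidates. Counts from htseq-count were converted to RPKM, the unit of the deposited values. The genome build of these libraries and the reads that make up the total in RPKM are not given in the sources used here.

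Each library listed the same 32420 features (10813 lncRNAs and 21607 Ensembl genes, 11654 of which could be paired with a symbol). The read total of each library was recovered as the most frequent greatest common divisor among the 250 lowest values. Feature length was the smallest one that gives whole reads. It was found for 29462 of 29462 features above 0, with a largest distance of 1.1e-09 reads from a whole number, and for 0 of 1135 features with totals altered at random by up to 1%. The recovery was tested on simulated data. Shared reads of overlapping transcripts were not resolved.

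The kidney-restricted lncRNAs, gene lists and limits were chosen with earlier results of these data known. Named were the 10 highest in kidney, the 5 highest and 5 lowest in the tissue mixture relative to kidney (at least 20 reads), the 5 highest in muscle libraries and in another organ, the 3 on each side of each limit, adjacent identifiers, the 3 nearest Ensembl profiles of the 5 highest, and kidney markers. TCONS_00312196, TCONS_00019678, TCONS_00450576, TCONS_00759765, TCONS_00505690, TCONS_00694042 the others under 200 nt, the near identifiers and the neighbours outside the rule were named after their values were seen. Ratios of libraries have exact binomial 95% intervals. No test between groups was made. Alternatives were other pseudocounts, limits and scalings. Python 3.11.15, pandas 2.3.3, scipy 1.17.1 and matplotlib 3.10.9 were used.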

Additional observations from a re-analysis of the deposited data

How the results depend on the processing

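With 1 library per group, no replicate could be left out, and no paired analysis was possible because the labels give no replicate numbers. Of 57 values recomputed under another choice, 27 moved by less than the limits set and 30 by more. The limits were 1.5 times for counts, the binomial 95% interval of a median and the Poisson interval of a sum. The number of kidney-restricted lncRNAs was 79. It was 49 with a pseudocount of 0.01 in tau, 134 with RPKM of at least 0.5, 46 with RPKM of at least 2 and 45 with tau of at least 0.95. With scaling it was 90 with RPKM scaled to the same total (77 of the 79 kept) or 74 with RPKM scaled by the median ratio over features (66 kept). Of the lncRNAs chosen, 37 were below 0.1 RPKM in the other 8 organs, and with RPKM of at least 2 in kidney 11 were at 0 there. The median log2 ratio of kidney to the highest other organ (3.79) was 4.72 with a pseudocount of 0.01, 1.55 with 1, 4.14 with RPKM of at least 2 and 4.11 with tau of at least 0.95. Above 0 in the tissue mixture were 42 with RPKM of at least 2 and 41 with tau of at least 0.95. In the muscle mixture 6 reached 0.1 RPKM, and 7 were above 0 with tau of at least 0.95. In muscle at day 0 there were 0 with tau of at least 0.95 and 1 with the median ratio. At day 30, 4 reached 0.1 RPKM, 5 were left with tau of at least 0.95 and 7 with the median ratio. At least 2-fold higher in the tissue mixture than in the muscle mixture were 2 with a pseudocount of 1, 20 at 4-fold, 27 with RPKM of at least 2, 27 with tau of at least 0.95 and 23 with the median ratio. The numbers compared and the shares over all lncRNAs are not given beside these counts, so their changes are no trait of the set. The median of tissue mixture over kidney RPKM (0.0571) was 0.0400 with the same total and 0.0251 with the median ratio. Counts under a scaling or limit are over the lncRNAs that then met the rule, and the cause of the changes was not tested. For lncRNAs with at least 20 reads, added after seeing the data, it was 0.0572. The summed RPKM in kidney (312) was 265 with RPKM of at least 2, 161 with tau of at least 0.95, 366 with the same total and 264 with the median ratio. At the lower end of the set, 13 lncRNAs had fewer than 20 recovered reads in kidney, all of them lower bounds. How far depth limits the set there was not tested.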
